A study of Mus musculus with 31 samples.

Results

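The 6 genes Dcpp3, Sbpl, Dmbt1, Ltf, Lipf and BC048546 encode, or are named after, products of exocrine glands and mucosal surfaces. They were picked by symbol from a table of 13521 genes counted in 31 RNA-Seq libraries of mouse alveolar macrophages (AM), the resident phagocytes of the airspaces, recovered by lung lavage. The groups were CS-exposed and control RAGE null mice and CS-exposed and control WT mice, where CS is cigarette smoke and control is room air, each kept for 7 days or for 4 months. Every group held 4 libraries except control WT at 7 days, which held 3, and libraries are named by the replicate number in their labels, which starts at 0. All mice were C57BL/6 or on that background, young adult and matched for age and sex at the start. WT and RAGE null mice were kept as separate colonies. The study's methods give male mice for the comparison of AM gene expression, and name their sex again only for the 7-day libraries. RAGE null mice carry a homozygous null mutation of Ager, the gene of the receptor for advanced glycation end products.

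Lavage recovers whatever cells lie free in the airspaces, so such a library can hold RNA of cells other than AM. In bulk RNA of this kind, fewer cells of a type and less RNA per cell cannot be told apart. Salivary acini release their proteins by regulated secretion: serous cells and the demilunes that cap mucous acini make antimicrobial, digestive and lubricating proteins. Ltf encodes lactoferrin, an iron-binding antimicrobial protein of tears, saliva, milk and airway glands that is also stored in neutrophil granules. Dmbt1 encodes a scavenger receptor cysteine-rich glycoprotein that binds bacteria and is known from human saliva as salivary agglutinin. Lipf encodes the acid lipase of the upper digestive tract, made by the stomach in humans and by serous glands of the tongue in rodents. Dcpp3 is named for the demilune cells and parotid gland of the mouse. Sbpl is named for its likeness to spermine binding protein, a secretory protein of the rodent prostate. BC048546 carries a cDNA name in the table, and GENCODE gives its ID the symbol A2ml1.

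The members were chosen with 7-day values in view. Their 7-day levels and fold changes are therefore given as a description with no test. Which values chose Ltf, Lipf and BC048546 is not recorded, so these 3 genes carry no test at 4 months either.

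Dcpp3 and Sbpl lie 33.6 kb apart on chromosome 17 of the mm10 build, Dcpp3 at chr17:23917458-23919441 on the plus strand and Sbpl at chr17:23953085-23954919 on the minus strand. The 250 bases before the RefSeq start of each gene (build GRCm38.p6) are shown because these neighbours had the largest fold changes of the 6 genes for CS-exposed over control WT mice at 7 days, with TATAA, a core of the TATA box, in capitals.
Dcpp3: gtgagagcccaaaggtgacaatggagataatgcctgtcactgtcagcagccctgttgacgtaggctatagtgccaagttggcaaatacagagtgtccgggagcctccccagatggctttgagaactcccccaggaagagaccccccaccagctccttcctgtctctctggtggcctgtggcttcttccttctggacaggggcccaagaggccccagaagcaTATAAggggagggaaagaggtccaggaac
Sbpl: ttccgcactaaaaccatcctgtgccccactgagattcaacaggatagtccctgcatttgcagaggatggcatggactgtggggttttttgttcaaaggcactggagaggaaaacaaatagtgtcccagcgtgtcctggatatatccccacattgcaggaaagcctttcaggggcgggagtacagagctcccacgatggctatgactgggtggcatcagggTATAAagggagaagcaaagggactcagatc
The Dcpp3 window is chr17:23917208-23917457 (plus strand) and the Sbpl window chr17:23955274-23955523 (minus strand). TATAA, searched on both strands after the sequences had been read, began 29 bases before the start of Dcpp3, 30 before that of Sbpl and 30 before that of Lipf, and was not in the window of Ltf. Of 32851 such windows, 22.8% held TATAA on either strand and 4.9% held it on the gene's strand within the last 50 bases. The match is a run of letters, not a measured binding site. Of the 6 genes, 4 had an entry in the RefSeq table, and Dmbt1 and BC048546 were not analysed here in this respect.

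The copies of these genes limit what their counts mean. Of all 50-base stretches of the Dcpp3 transcript, 46.1% also occur in Dcpp1 or Dcpp2, and 39.0% of those of Sbpl occur in Sbp, while Dmbt1, Ltf and Lipf shared none with another gene. In Dmbt1, 25.6% of the 50-base stretches occur more than once within its own transcript. Reads that fit several places were removed before counting, so the counts of Dcpp3, Sbpl and Dmbt1 come from part of each transcript and remain uncertain as measures of one gene. The Dcpp3 transcript was 96.9% identical to Dcpp2 and 93.1% to Dcpp1 over the aligned bases, and the window before the Dcpp3 start was 98.0% identical to that of each. Dmbt1, on chromosome 7, also overlaps the interval of the listed gene Fgfr2, and whether counting used strand is not given in the sources used here.

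Library depth ran from 11666879 to 19975073 counts at 7 days and from 12769797 to 34492288 at 4 months. Levels are in CPM, a gene's counts scaled to the same total in every library and adjusted by the trimmed mean of M values, and a count of 0 allows up to 0.087 to 0.257 CPM depending on the library. Intervals and limits of this kind cover counting error only. The targeted gene did not check the genotype labels: Ager ranged from 3.83 to 5.43 CPM in libraries labelled RAGE null and from 4.17 to 7.38 CPM in WT libraries at 7 days. At 4 months it was higher in libraries labelled RAGE null, with 2.73 to 4.20 CPM against 0.671 to 2.53 CPM in WT libraries, and edgeR called the difference after CS (adjusted p = 0.0040) and in controls (adjusted p = 0.0206). Which part of Ager is deleted is not given in the sources used here, so reads of the remaining part are possible, and each genotype direction below rests on the labels. AM markers were high in every library: the 22 listed of 25 AM genes summed to between 29382 and 44569 CPM in the 30 libraries other than CS-exposed WT replicate 0 at 7 days, and to 34547 CPM in that one.

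One library carried the signal. In CS-exposed WT replicate 0 at 7 days, all 6 genes had their highest level of the 31 libraries, and together they took 107233 counts, or 0.919% of the library (95% exact Clopper-Pearson interval 0.914 to 0.925%). In the other 30 libraries the 6 genes took between 0.00177 and 0.0139% of the counts. Of all 13521 genes listed, 2.63% had their highest level in that library. The choice of the members used this pattern, so the count of 6 is not a test.

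Sbpl had the largest contrast. It was at 0.635, 0.232, 0.287 and 0.442 CPM in CS-exposed RAGE null libraries, 0.125, 15.9, 0.173 and 0.114 CPM in control RAGE null libraries, 1672, 7.78, 0.336 and 0.511 CPM in CS-exposed WT libraries and 0.303, 0.164 and 0.0617 CPM in control WT libraries, in replicate order. Replicate 0 of the CS-exposed WT group was 105-fold above the next library, control RAGE null replicate 1, and held 97.8% of all 20904 Sbpl reads. The CS-exposed WT libraries all lay above the control WT libraries, and the RAGE null groups overlapped. The lowest CS-exposed WT library, replicate 2, and the highest control WT library, replicate 0, each had 5 reads, so only depth scaling separated them. Non-overlap of this kind held for 20.9% of all genes tested in the WT comparison.

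Dcpp3 had the same 3 highest libraries as Sbpl. Its levels were 0.489, 0.232, 0.215 and 0.737 CPM in CS-exposed RAGE null libraries, 0.125, 12.9, 0 and 0 CPM in control RAGE null libraries, 597, 2.35, 0.336 and 0.292 CPM in CS-exposed WT libraries and 0.121, 0.164 and 0 CPM in control WT libraries. The highest library was 46.2-fold above the second, and 95.7% of 7629 reads came from it. The CS-exposed WT libraries all lay above the control WT libraries, a non-overlap that 20.9% of all genes tested showed. With replicate 0 set aside, the remaining 3 held 29, 5 and 4 reads against 2, 3 and 0 in control WT libraries. They still lay above the controls, but the counting intervals of CS-exposed WT replicates 2 and 3 overlapped those of every control WT library. The share of all genes without overlap was not computed for this smaller set, so nothing is concluded from it.

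Dmbt1 had a low but detectable level nearly everywhere. It was at 0.635, 0.387, 0.143 and 0.590 CPM in CS-exposed RAGE null libraries, 1.12, 18.7, 0.577 and 0.569 CPM in control RAGE null libraries, 976, 2.67, 1.14 and 0.365 CPM in CS-exposed WT libraries and 0.607, 1.26 and 1.42 CPM in control WT libraries. Outside replicate 0 the CS-exposed WT libraries spanned the control WT values on both sides. Replicate 0 was 52.3-fold above control RAGE null replicate 1.

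BC048546 stood between 1.16 and 3.40 CPM in all libraries but 2. Its 7-day levels were 2.25, 1.63, 1.29 and 1.40 CPM in CS-exposed RAGE null libraries, 2.62, 11.4, 1.79 and 1.37 CPM in control RAGE null libraries, 654, 3.40, 1.95 and 1.17 CPM in CS-exposed WT libraries and 1.33, 2.076 and 2.22 CPM in control WT libraries. The 16 libraries of 4 months ran from 1.16 to 3.09 CPM. The highest library was 57.4-fold above the second, again control RAGE null replicate 1.

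Ltf and Lipf, the antimicrobial protein and the lipase, had a base level in every library on which the high library was set. Ltf was at 21.3, 8.36, 24.8 and 26.9 CPM in CS-exposed RAGE null libraries, 28.7, 42.4, 60.6 and 44.7 CPM in control RAGE null libraries, 2741, 33.6, 35.3 and 13.9 CPM in CS-exposed WT libraries and 24.8, 38.5 and 44.3 CPM in control WT libraries. Control RAGE null replicate 1, second for the 4 genes above, was the fifth for Ltf. Lipf was at 17.5, 16.4, 18.4 and 15.7 CPM in CS-exposed RAGE null libraries, 11.1, 34.2, 14.3 and 19.8 CPM in control RAGE null libraries, 2130.1, 31.4, 22.7 and 17.97 CPM in CS-exposed WT libraries and 18.7, 13.1 and 19.3 CPM in control WT libraries. Replicate 0 was 45.3-fold above the second library for Ltf and 31.2-fold for Lipf, and its share of the summed level of 31 libraries was 82.2% for Ltf and 70.03% for Lipf, against 98.1% for Sbpl.

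**Figure D1:**
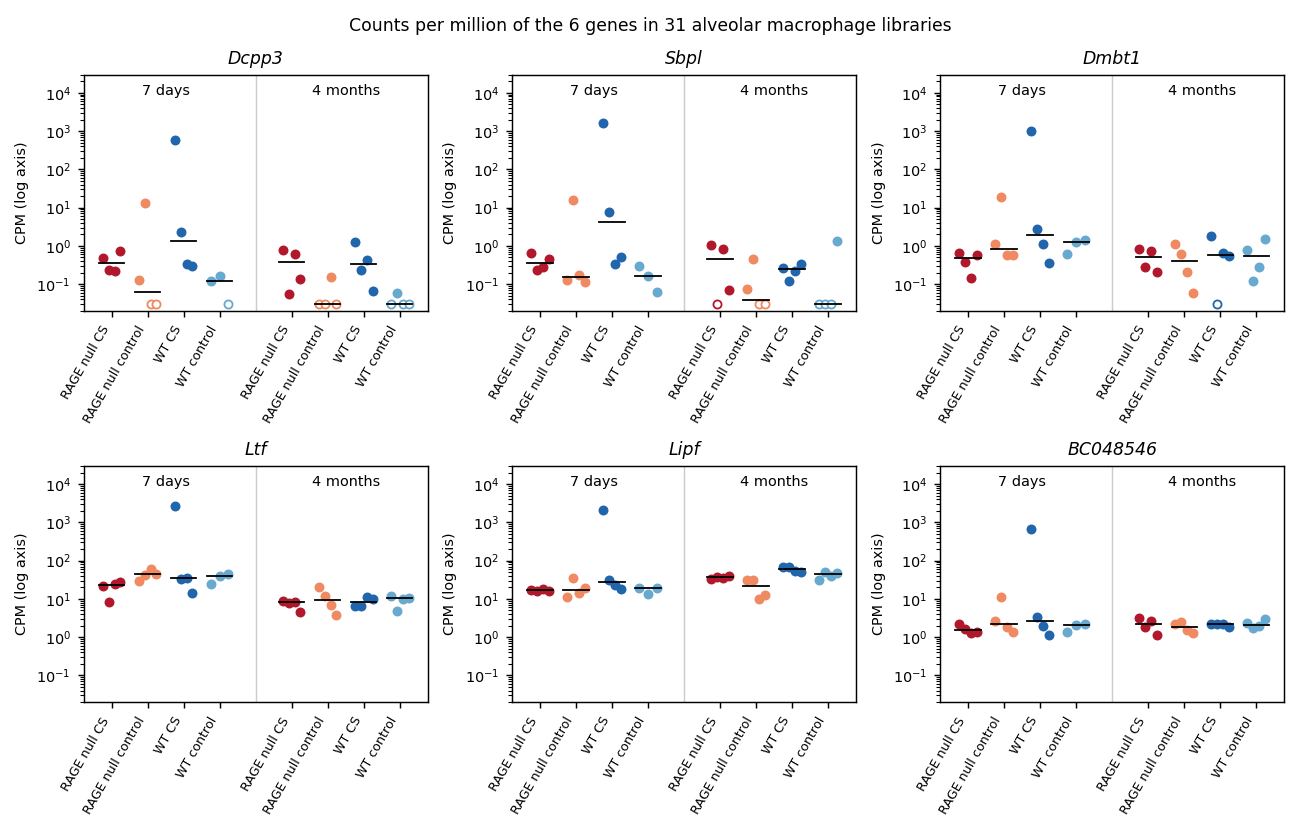
CPM of each of the 6 genes (log axis) in every library, by group, at 7 days on the left and 4 months on the right of each panel; points are libraries, lines are group medians, and open points on the lower edge are libraries with 0 counts. CS-exposed WT replicate 0 at 7 days is the top point of every panel, and control RAGE null replicate 1 is second for Dcpp3, Sbpl, Dmbt1 and BC048546.

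Divided by transcript length, the 6 genes ranked Sbpl, Lipf, Ltf, Dcpp3, Dmbt1 and BC048546 in the high library, with levels of 1922, 1509.6, 999, 979, 156 and 139 CPM per kilobase. By their median per kilobase in the other 30 libraries the order was Lipf with 21.9, Ltf with 4.32, BC048546 with 0.429, Sbpl with 0.258, Dcpp3 with 0.239 and Dmbt1 with 0.0965. In the high library Sbpl was the 15th and Lipf the 22nd most abundant of all listed genes per kilobase. In the other libraries Sbpl ranked 12615th by its median. The whole length was used, though 46.1% of the 50-base stretches of Dcpp3 and 39.0% of those of Sbpl also occur in their copies. In Dmbt1 25.6% are repeated, while Ltf and Lipf share none. Reads that fit several places were removed, so the levels of Dcpp3, Sbpl and Dmbt1 may be understated. The orders and ranks given here are uncertain for that reason.

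The proportions among the 6 genes were compared in the 3 libraries with most reads of Sbpl, namely control RAGE null replicate 1, CS-exposed WT replicate 0 and CS-exposed WT replicate 1. For each 100 reads of Sbpl there were 81.5 of Dcpp3 in control RAGE null replicate 1 (95% counting interval 67.1 to 98.9), 35.7 in CS-exposed WT replicate 0 (34.8 to 36.7) and 30.2 in CS-exposed WT replicate 1 (19.2 to 46.2). Dcpp3 to Sbpl was thus within counting error in the 2 CS-exposed WT libraries and higher in the control RAGE null library. Dmbt1 gave 118 reads for each 100 of Sbpl in control RAGE null replicate 1 (98.6 to 140.4), 58.4 in CS-exposed WT replicate 0 (57.1 to 59.7) and 34.4 in CS-exposed WT replicate 1 (22.4 to 51.5), so all 3 intervals were apart. Ltf and Lipf gave 267 and 216 reads in control RAGE null replicate 1, 164 and 127 in CS-exposed WT replicate 0, and 432 and 403 in CS-exposed WT replicate 1. Their base level, which every library had, is part of these ratios.

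**Figure D2:**
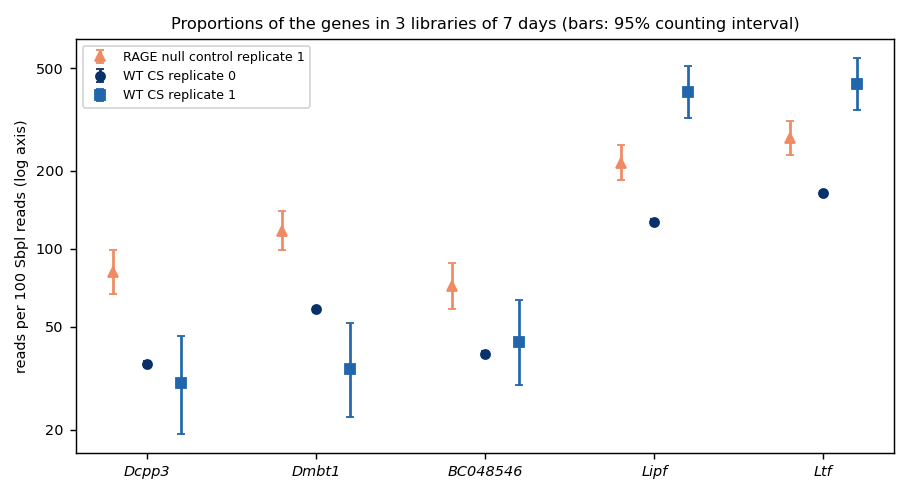
Reads of 5 genes for each 100 reads of Sbpl (log axis) in control RAGE null replicate 1, CS-exposed WT replicate 0 and CS-exposed WT replicate 1 at 7 days; bars are exact 95% intervals for counting error only. Dmbt1 stands at 118, 58.4 and 34.4 reads in these libraries.

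The 7-day fold changes rested on this library. With all 15 libraries, the fitted log2 fold change of CS-exposed over control WT mice was 11.16 ± 3.02 (SE) for Sbpl, 10.47 ± 2.98 for Dcpp3, 7.80 ± 2.28 for Dmbt1, 6.45 ± 1.85 for BC048546, 5.03 ± 1.40 for Lipf and 4.31 ± 1.38 for Ltf. Without replicate 0 it was 3.17 ± 2.29 for Dcpp3, 0.30 ± 1.23 for Dmbt1, 0.18 ± 0.67 for BC048546, 0.49 ± 0.30 for Lipf and -0.39 ± 0.37 for Ltf, and Sbpl no longer passed the filter on low counts. The value of Ltf changed sign, and those of all 5 genes were smaller in size. Control RAGE null replicate 1 was also left out in an alternative added after the data were seen, where Dcpp3 and Sbpl had no value. The values were then 0.31 ± 0.54 for Dmbt1, 0.19 ± 0.36 for BC048546, 0.49 ± 0.21 for Lipf and -0.38 ± 0.38 for Ltf. Each SE describes the fit and is not read as a test, since the members were chosen with 7-day values in view. For scale, edgeR called 2.26% of 13220 genes in this comparison at an adjusted p under 0.05 and a change of at least 1.5-fold.

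After CS, the libraries labelled RAGE null had lower fitted levels than WT, by -9.93 ± 2.43 for Sbpl, -9.05 ± 2.27 for Dmbt1, -8.44 ± 2.22 for Dcpp3, -6.61 ± 1.67 for BC048546, -5.12 ± 1.28 for Ltf and -5.02 ± 1.24 for Lipf on the log2 scale. Without CS-exposed WT replicate 0 these were -1.56 ± 1.33 for Dmbt1, -1.14 ± 1.66 for Dcpp3, -0.36 ± 0.64 for BC048546, -0.43 ± 0.35 for Ltf and -0.48 ± 0.28 for Lipf. Without control RAGE null replicate 1 as well, they were -1.57 ± 0.58 for Dmbt1, -0.36 ± 0.35 for BC048546, -0.43 ± 0.36 for Ltf and -0.49 ± 0.19 for Lipf. Control RAGE null mice are not part of this comparison, so the smaller SEs come from the spread that all groups share. They are not read as a test. edgeR called 2.2% of all genes here, and groups did not overlap for 12.2% of them, though they overlapped for each of the 6 genes. Both comparisons share the CS-exposed WT group, so their values are not independent.

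The comparisons without CS-exposed WT mice turned on control RAGE null replicate 1. In these, edgeR called 0.439% of all genes for CS-exposed against control RAGE null mice and 4.78% for genotype in controls. The difference between the genotypes in the CS response, which contains CS-exposed WT mice, had 0% of all genes called. In controls, the log2 fold change of RAGE null over WT was 4.85 ± 4.46 for Dcpp3, 4.38 ± 4.22 for Sbpl, 2.18 ± 2.63 for Dmbt1 and 1.14 ± 2.10 for BC048546. Without that library Dcpp3 was at -1.17 ± 10.85, Dmbt1 at -0.56 ± 3.73 and BC048546 at 0.02 ± 2.48. For CS-exposed over control RAGE null mice, Dcpp3 turned likewise, with a log2 fold change of -2.83 ± 3.08 with all libraries and 3.19 ± 7.71 without it, and Dmbt1 was at -3.43 ± 2.93 with all libraries and -0.70 ± 4.29 without it. Ltf kept its value here, at -1.11 ± 1.15 with all libraries and -1.13 ± 1.26 without it. All 4 CS-exposed RAGE null libraries (8.36 to 26.9 CPM) lay below all 4 control RAGE null libraries (28.7 to 60.6 CPM) for Ltf, a non-overlap that 7.22% of all genes tested showed in this comparison. With both high libraries left out, an alternative added after the data were seen, Ltf was at -1.14 ± 0.35. The groups share their estimate of spread, so the SEs here also depend on CS-exposed WT replicate 0. Without that library alone, Ltf was at -1.11 ± 0.32, Dmbt1 at -3.47 ± 1.08 and Dcpp3 at -2.88 ± 1.33 for CS in RAGE null mice. For genotype in controls Dcpp3 was then at 4.91 ± 1.87 and Dmbt1 at 2.21 ± 1.02. These values still hold control RAGE null replicate 1.

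**Figure D3:**
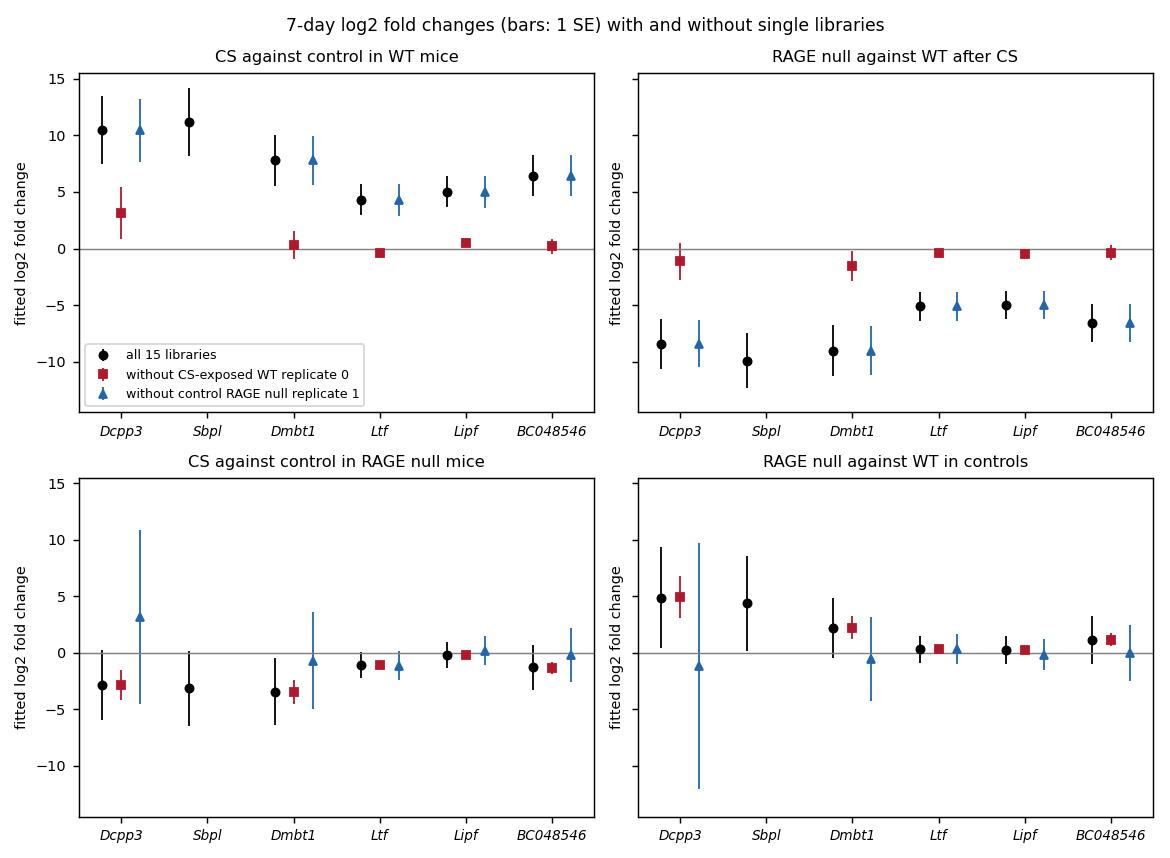
Fitted 7-day log2 fold changes of the 6 genes in 4 comparisons, with all 15 libraries, without CS-exposed WT replicate 0 and without control RAGE null replicate 1; bars are 1 SE. Sbpl has no value without either library because it missed the filter, and in both comparisons with CS-exposed WT mice the other genes lie between -1.56 and 0.49 without replicate 0, except Dcpp3 at 3.17 for CS in WT mice.

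The same library was set against lists of genes of other cell types, which were chosen with earlier results of these data known. Of 35 other salivary and lacrimal gland genes, 12 were in the table. Of these, 9 had their highest level in CS-exposed WT replicate 0 at 7 days, against 2.63% of all genes listed. Every gene in the table reached 20 counts in some library. Prb1, Prpmp5, Lpo, Azgp1 and Bhlha15, named after their values were seen, did so in this library only and thus had to be highest there. The 12 genes summed to 137 CPM there and to between 14.7 and 17.6 CPM in the other CS-exposed WT libraries of 7 days. In all 30 other libraries they summed to between 5.12 and 36.3 CPM. Wfdc18, a WAP-domain gene, was at 69.1 CPM against at most 1.53 CPM elsewhere. Named after their values were seen, the salivary proline-rich protein gene Prb1 was at 5.40 CPM (66 reads) there and had no read in any other library, and lactoperoxidase, Lpo, was at 4.09 CPM against at most 0.0666 CPM elsewhere. Not every gland gene was high: the secreted nuclease Dnase1 was at 2.29 CPM there and reached 3.87 CPM elsewhere, and the amylase gene Amy1 was at 1.23 CPM there and reached 3.11 CPM elsewhere.

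Airway secretory genes were also high there, but by less. Of the 22 in the table, 15 were highest in that library, against 2.63% of all genes listed. Cldn10, with 49 reads there and at most 0.267 CPM elsewhere, was in the table only through it. The 22 listed of 25 summed to 1579 CPM in that library, to between 771 and 1271 CPM in the other CS-exposed WT libraries of 7 days and to between 249 and 1271 CPM in the other 30. Bpifa1, a secreted protein of the upper airways, was at 499 CPM there and reached 477 CPM in another CS-exposed WT library, and Scgb1a1, the club cell secretoglobin, was at 214 CPM there and reached 212 CPM elsewhere. For CS in WT mice at 7 days, edgeR called 8 of the 21 airway secretory genes tested, all higher, against 2.26% of all genes. These were Aldh1a1, Cbr2, Cyp2a5, Gsta3, Reg3g, Scgb3a1, Scgb3a2 and Sec14l3. Without replicate 0 it called 6 of 21, all of these but Gsta3 and Reg3g, against 2.23% of all genes. The study lists carbonyl reductase 2, Cbr2, among the targets of the transcription factor Nrf2 that rose most with CS in WT mice. Which cells the rise of these genes came from was not tested. The part of airway or gland RNA in the levels of the 6 genes was not tested.

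The other lists set this library apart less or not at all. Each gene's level in the library was set over its median in the other 30, on the log2 scale with 0.5 CPM added. The median was 8.91 for the 6 genes, 2.73 for other gland genes, 2.19 for airway secretory genes and -0.26 for AM genes. The gland median includes Prb1, Prpmp5, Lpo, Azgp1 and Bhlha15, in the table only through this library, so its place above the airway median is not a result. Of the other gland genes, Amy1 was at -0.42, Dnase1 at -0.25, Egf at 1.03 and Kcnn4 at 1.34. Aqp5 was at 2.79, Pigr at 3.46 and Wfdc18 at 6.70. Of 21 neutrophil genes other than Ltf, 11 were listed, with a median of 0 and a sum of 106 CPM there against 83.9 to 207.3 CPM in the other 30 libraries. S100a8, a neutrophil calcium-binding protein gene, was at 8.996 CPM in that library and had a median of 9.16 CPM in the others. Of 14 gastric mucosa genes only Tff2 was listed, at 1.55 CPM there, second to 2.27 CPM in control RAGE null replicate 1 and followed by 1.54 CPM in CS-exposed WT replicate 1, the 3 libraries that also led for Sbpl. Of 16 ciliated cell genes 4 were listed, with a median of 0.71 on that log2 scale. Of these, Foxj1 (4.33 CPM) and Ccdc153 (2.29 CPM) were highest in that library, while the sum of 160 CPM, the 20th of 31, was mostly Tppp3 (152.5 CPM). Of 17 stratified squamous and basal epithelial genes, 6 were listed and summed to 6.30 CPM there, within the range of 1.84 to 22.5 CPM of the others.

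**Figure D4:**
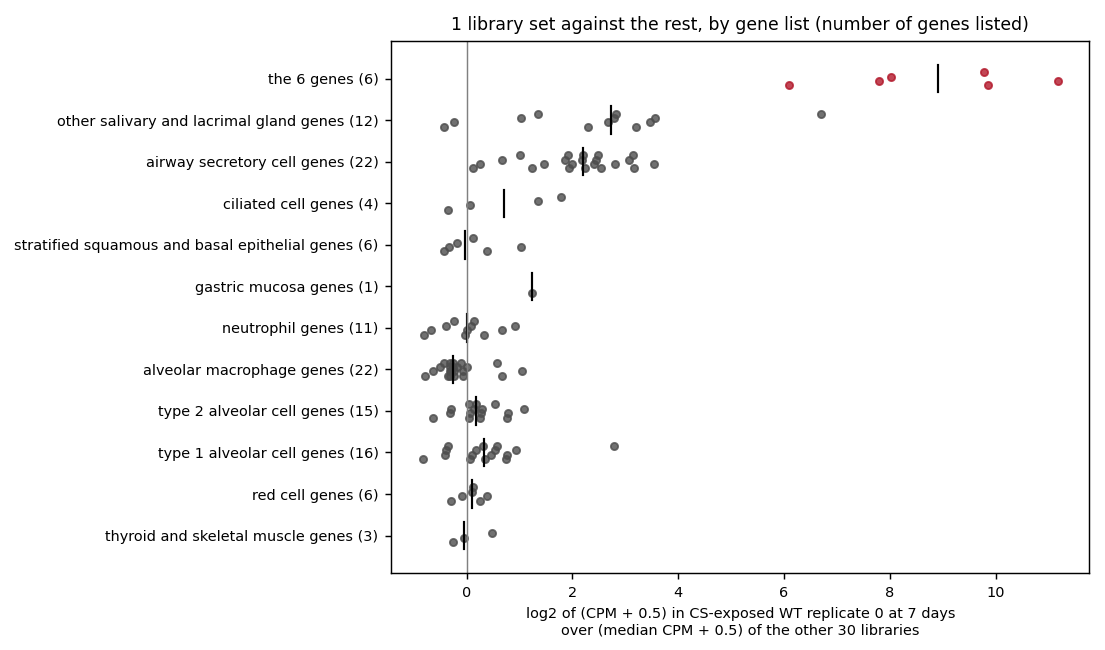
Each point is 1 gene: log2 of its CPM plus 0.5 in CS-exposed WT replicate 0 at 7 days over the median of the other 30 libraries plus 0.5; vertical strokes are list medians, and the number of genes in the table stands beside each list. The 6 genes lie between 6.09 and 11.17, the other gland genes have a median of 2.73, and AM genes one of -0.26. Prb1, Prpmp5, Lpo, Azgp1 and Bhlha15 of the gland list and Cldn10 of the airway list were in the table only through this library. The 6 genes were chosen with 7-day values in view, so their place is not a test.

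Few genes stood apart in this way, and the 6 were among the foremost. The choice of the members used this pattern, so their place is not a test. With 0.5 CPM added, 36 genes of the table were at least 4-fold above every other library in CS-exposed WT replicate 0 at 7 days, while each other library had between 0 and 2 such genes and 27 had none. The 36 held the 6 members, 5 other gland genes and 1 airway secretory gene, and 24 were in no list. Of these, Prb1, Prpmp5, Lpo, Azgp1 and Cldn10 were in the table only through this library. The gene farthest apart, named after its values were seen, was 2310057J18Rik on chromosome 10, at 308 CPM there and at most 0.324 CPM elsewhere. The listed IDs without a symbol, ENSMUSG00000067843 and ENSMUSG00000061980, were at 72.9 and 13.4 CPM there and reached 5.33 and 0.933 CPM elsewhere. They occupy the intervals that GENCODE gives to Dcpp2 and Dcpp1, beside Dcpp3 on chromosome 17.

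Likeness over libraries was measured as Pearson's r of log2 CPM over the 31 libraries, as a description, since libraries share groups and depth. Only genes that passed the filter on low counts over the 31 libraries were compared. It left out 2310057J18Rik, which had few reads outside the high library, so the ranks are not over all genes. Among genes other than the 6, ENSMUSG00000067843 was most like Dcpp3 (r = 0.94), Sbpl (0.94), BC048546 (0.91), Dmbt1 (0.87) and Lipf (0.73), and Gp2, a membrane protein of secretory granules, was second for Dcpp3 (0.90), Sbpl (0.86), BC048546 (0.79) and Dmbt1 (0.76). Serpinb11, a serpin, was the third for Dcpp3 (0.68) and Sbpl (0.72). Pglyrp1, a secreted bacteria-binding protein, was the third for Dmbt1 (0.76) and BC048546 (0.68) and second for Ltf (0.91). Ltf was most like Msln, the mesothelial surface protein mesothelin (0.92), with 5330417C22Rik the third (0.85), and Lipf was followed by Plekha7, an adherens junction gene (0.65), and by Gp2 (0.63). Without the high library, the r of ENSMUSG00000067843 was 0.83 with Dcpp3, 0.82 with Sbpl and 0.22 with Lipf, and that of Msln with Ltf stayed at 0.92. The r of Gp2 was then 0.75 with Dcpp3, 0.64 with Sbpl, 0.36 with Dmbt1, 0.35 with BC048546 and -0.02 with Lipf. That of Pglyrp1 was 0.83 with Ltf, 0.49 with Dmbt1 and 0.23 with BC048546. Dmbt1 and BC048546 were more like each other (0.93) than like any gene outside the 6 that passed this filter. Lipf was more like BC048546 (0.83) than like any such gene. Among the 15 pairs of the 6 genes, r lay between 0.48 and 0.93 over 31 libraries, between -0.45 and 0.79 without the highest and between -0.52 and 0.54 without the 3 highest in Sbpl.

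At 4 months no library was high for all 6 genes. Dcpp3 had 11, 1, 10 and 2 reads in CS-exposed RAGE null libraries, 0, 0, 3 and 0 in control RAGE null libraries, 23, 4, 6 and 1 in CS-exposed WT libraries and 0, 2, 0 and 0 in control WT libraries. It did not pass the filter on low counts. All 4 CS-exposed WT libraries were above all 4 control WT libraries, a non-overlap that 22.9% of all genes tested showed in 1 direction or the other, with 0.492 ± 0.515 CPM against 0.0148 ± 0.0297 CPM (SD, n = 4 each). The exact 2-sided permutation test gave p = 0.0286, the smallest that 4 against 4 libraries can give, and 0.343 after Benjamini-Hochberg adjustment over 12 such tests. With no filter, edgeR's quasi-likelihood test gave a log2 fold change of 4.03 ± 1.16 (SE) and an adjusted p of 0.0294 for Dcpp3, and without CS-exposed WT replicate 0, which held 23 of the 34 reads, 2.96 ± 1.24 and 0.159.

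Sbpl also missed the filter at 4 months. It had 15, 0, 14 and 1 reads in CS-exposed RAGE null libraries, 1, 6, 0 and 0 in control RAGE null libraries, 5, 2, 3 and 5 in CS-exposed WT libraries and 0, 0, 0 and 21 in control WT libraries. The groups overlapped in all 4 comparisons, and the exact permutation p-values of Sbpl ran from 0.343 to 1, each 1 after adjustment. The 21 reads of control WT replicate 3 were all that its group had.

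Dmbt1 passed the filter at 4 months and was called in none of the 5 comparisons by edgeR, where 0.0383 to 7.27% of all genes were called. Its levels were 0.843, 0.273, 0.727 and 0.205 CPM in CS-exposed RAGE null libraries, 1.15, 0.604, 0.206 and 0.0571 CPM in control RAGE null libraries, 1.82, 0, 0.649 and 0.537 CPM in CS-exposed WT libraries and 0.791, 0.119, 0.288 and 1.51 CPM in control WT libraries. All groups overlapped. The log2 fold change of CS-exposed over control mice was 0.13 ± 0.98 (SE) among RAGE null libraries (edgeR adjusted p = 0.942) and 0.36 ± 0.85 among WT libraries (edgeR adjusted p = 0.83). For libraries labelled RAGE null over WT it was -0.61 ± 0.89 after CS and -0.38 ± 0.95 in controls (edgeR adjusted p = 0.714 and 0.806). No unadjusted p was under 0.05 for Dmbt1 in these comparisons.

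Lipf had groups without overlap in 3 of the 4 comparisons of 4 months, and these are described with no test. CS-exposed RAGE null libraries had 32.3, 37.0, 35.8 and 40.6 CPM, control RAGE null libraries 30.3, 31.4, 10.1 and 12.9 CPM, CS-exposed WT libraries 68.2, 66.1, 54.1 and 51.5 CPM and control WT libraries 31.9, 51.7, 40.4 and 46.6 CPM. Libraries labelled RAGE null lay below WT libraries with no overlap in both conditions, by -0.72 ± 0.27 (SE) on the log2 scale after CS and by -1.04 ± 0.28 in controls. Non-overlap held for 19.4% and 20.2% of all genes tested in these comparisons. CS-exposed libraries lay above controls with no overlap in RAGE null mice, by 0.80 ± 0.28, where 16.6% of all genes did not overlap, and by 0.48 ± 0.26 in WT mice, where the groups overlapped. Leaving out single libraries kept the control difference between -1.31 and -0.81.

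Ltf and BC048546 overlapped between groups in all 4 comparisons of 4 months. Ltf averaged 7.40 ± 2.05 CPM in CS-exposed RAGE null, 10.8 ± 7.25 in control RAGE null, 8.42 ± 2.47 in CS-exposed WT and 9.24 ± 3.09 CPM in control WT libraries (SD, n = 4 each). BC048546 averaged between 1.86 and 2.21 CPM in the 4 groups. Between times, Ltf was lower at 4 months, with a median of 8.74 CPM over 16 libraries, than at 7 days, with 31.1 CPM over the 14 libraries other than replicate 0, while Lipf was higher, with 38.7 CPM at 4 months and 18.2 CPM at 7 days. Airway secretory genes also differed between times: they summed to between 249 and 503 CPM at 4 months and to between 618 and 1271 CPM in the 14 libraries of 7 days, and over the 30 libraries Ltf had r = 0.89 with Cyp2f2, an airway cytochrome P450 gene. Their part in the level of Ltf was not tested. Exposure length, age and library preparation cannot be told apart here, and no test across times was made.

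**Figure D5:**
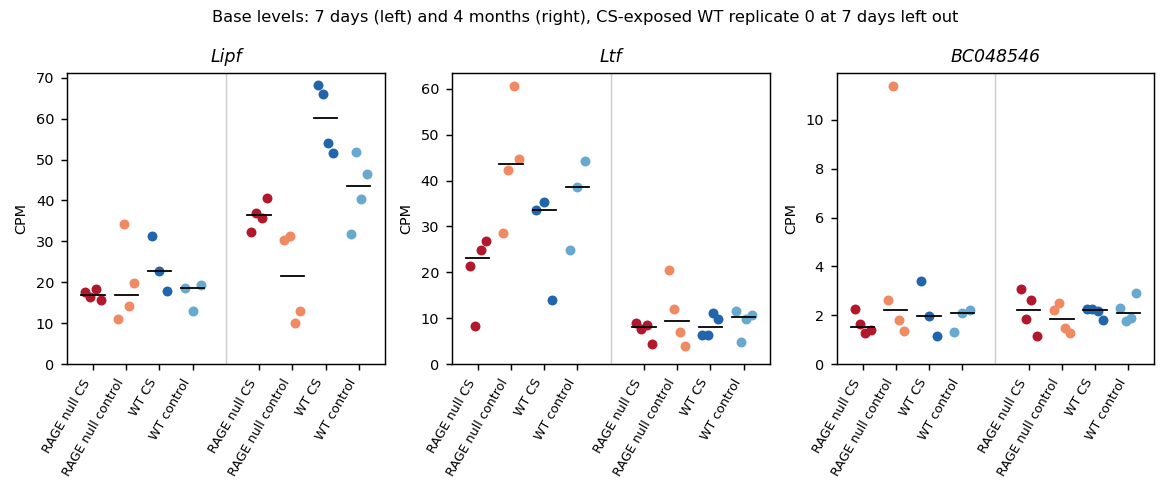
CPM of Lipf, Ltf and BC048546 in every library except CS-exposed WT replicate 0 at 7 days, which lies far above the axes; points are libraries, lines are group medians, 7 days on the left and 4 months on the right of each panel. At 4 months the Lipf points of the RAGE null groups lie below those of the matching WT groups.

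Few other gland genes could be tested. The lists were chosen with earlier results of these data known, so calls of list genes are not independent tests. Of the 6 tested at each time (Aqp5, Pigr, Dnase1, Amy1, Kcnn4 and Egf), edgeR called 1 at 7 days, Aqp5, the water channel of salivary acini and type 1 alveolar cells, which was higher in control RAGE null than control WT libraries by 3.09 ± 0.56 on the log2 scale (edgeR adjusted p = 0.00357). In that comparison 4.78% of all genes were called. It averaged 13.2 ± 4.31 CPM in control RAGE null (SD, n = 4) and 1.54 ± 0.326 CPM in control WT libraries (SD, n = 3), and the groups did not overlap, as for 19.5% of all genes. At 4 months, where edgeR called 6.97% of all genes for genotype in controls and 4.94% after CS, Aqp5 was again higher in control RAGE null (0.824 to 6.66 CPM) than control WT libraries (0.297 to 1.11 CPM), by 3.05 ± 0.51 (edgeR adjusted p = 0.0017).

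Some of these genes were lower after CS at 4 months. Pigr, the receptor that carries IgA across epithelia, was at 0 to 0.485 CPM in CS-exposed and 1.43 to 3.14 CPM in control RAGE null libraries, Kcnn4, a calcium-activated potassium channel, at 0.0685 to 0.382 CPM in CS-exposed and 0.669 to 1.15 CPM in control ones, and Aqp5 at 0.913 to 1.45 CPM in CS-exposed and 0.824 to 6.66 CPM in control ones. Pigr and Kcnn4 did not overlap, as for 16.6% of all genes tested in RAGE null mice, while Aqp5 did. In RAGE null mice, where edgeR called 7.27% of all genes, 3 of the 6 fell with CS, with log2 fold changes of -3.26 ± 0.73 for Pigr, -2.18 ± 0.58 for Kcnn4 and -1.87 ± 0.46 for Aqp5 (edgeR adjusted p = 0.00586, 0.0161 and 0.0102). In WT mice, where 5.67% of all genes were called, Kcnn4 alone of the 6 passed the test, at 0.107 to 0.940 CPM in CS-exposed and 1.01 to 1.96 CPM in control WT libraries, with a log2 fold change of -1.85 ± 0.45 (edgeR adjusted p = 0.0127). The difference between the genotypes in the CS response passed the test for none of the 6 (edgeR; 1 of 6 had an unadjusted p under 0.05). The median log2 fold change of the 6 was -1.03 in RAGE null mice, against -0.01 over all genes, and -0.15 in WT mice, against 0.00 over all genes. Type 1 and type 2 alveolar cell genes moved in the same comparisons: with CS in RAGE null mice 7 of 12 tested fell in each list and none rose, and in controls 9 of 12 in each list were higher in RAGE null libraries. At 7 days 11 of 15 type 2 and 11 of 16 type 1 genes tested were higher in RAGE null controls. Aqp5 is itself in the type 1 list, so these counts of type 1 genes include it. With CS in RAGE null mice at 4 months, 4 of 6 neutrophil genes, 3 of 4 red cell genes and 3 of 19 airway secretory genes were also lower. There 1 neutrophil gene was higher. The part of these cell types in the levels of Aqp5, Pigr and Kcnn4 was not tested. Lipf had a fold change of the opposite sign in both comparisons.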

How the data were processed

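AM RNA of 31 mouse libraries was selected with oligo dT (TruSeq) and read single-end. Per the study's methods, the authors aligned reads to mm10 with Novoalign, removed reads with several locations and deposited raw counts per gene and FPKM values per gene, of which the FPKM were not used; strand of counting is not given in the sources used here. The table listed 13521 genes, none with a maximum under 20 counts in any library, and 1 emptied line. Library totals were 11666879 to 34492288 counts. Columns with the authors' own comparisons were not used.

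Counts were fitted per time point with edgeR 4.0.16 (R 4.3.3): filterByExpr, TMM scaling, quasi-likelihood F test, 1 coefficient per group, Benjamini-Hochberg adjustment over all genes tested (13220 at 7 days, 13045 at 4 months), with genes called where the adjusted p was below 0.05 and the change 1.5-fold or more. SE is the log2 fold change over the square root of F. The methods give as many mice as libraries in each group. The steps were tested on simulated data. Members missing the filter at 4 months, and Dmbt1, had exact permutation tests on log2 CPM. Likeness used genes passing the filter over 31 libraries (13412).

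Members and lists were chosen with earlier results of these data known. Genes named are the members, the 3 most like each, the 4 most abundant of each list, called list genes, copies and Ager, and others are said to be chosen after their values were seen. Same-numbered libraries did not deviate together (mean residual r 0.01 at 7 days and 0.03 at 4 months). Promoters are from RefSeq (GRCm38.p6) and transcripts from GENCODE vM21. Alternatives were DESeq2 1.42.0, its size factors, other filters, no fold threshold, the replicate block, only the groups compared and leaving out each library.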

Additional observations from a re-analysis of the deposited data

Results flagged for a closer look

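In groups of 4 libraries, the highest or lowest value was set against Dixon's 95% criterion (0.829 of the group's range), gene by gene, for 42 group and gene pairs, as a description. It marked 14, all of them high values. The rate of about 1 in 20 that chance gives does not apply to the 10 marks of 7 days, because the genes were chosen with these values in view, nor to the 3 marks of 4 months where the other 3 libraries were at 0, since any count then meets the criterion. CS-exposed WT replicate 0 at 7 days was marked for all 6 genes, with 597 CPM for Dcpp3, 1672 for Sbpl, 976 for Dmbt1, 2741 for Ltf, 2130.1 for Lipf and 654 for BC048546. Control RAGE null replicate 1 at 7 days was marked for 4 genes, with 12.9 CPM for Dcpp3, 15.9 for Sbpl, 18.7 for Dmbt1 and 11.4 for BC048546. At 4 months the marked values rest on few reads: Dcpp3 was at 0.154 CPM in control RAGE null replicate 2 (3 reads) and 0.0593 CPM in control WT replicate 1 (2 reads), and Sbpl at 0.453 CPM in control RAGE null replicate 1 (6 reads) and 1.33 CPM in control WT replicate 3 (21 reads). The 6 genes are not independent of each other, since the same 2 libraries account for 10 of the 14.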

How the results depend on the processing

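The 7-day levels rest on 2 libraries, as described above. At 4 months the count of Dcpp3, Sbpl and Dmbt1 called was 0 in all 5 comparisons. For CS in WT mice it was 1 with no filter, and it ran from 0 to 1 when single libraries were left out: it was 1 without CS-exposed WT replicate 3, control RAGE null replicates 0 or 1 or CS-exposed RAGE null replicate 3, each of which let all 3 genes pass the filter. For the other gland genes at 7 days the main counts were 0 for CS in WT mice, for CS in RAGE null mice and for genotype after CS; DESeq2 gave 1 for CS in WT mice, a fit of only the groups compared 1 for CS in RAGE null mice, and no filter, or both high libraries left out (added after the data were seen), 1 for genotype after CS. Leaving out single libraries gave 0 to 1 for CS in RAGE null mice and for genotype after CS, with 1 in both without CS-exposed WT replicate 0 and 1 for genotype after CS without CS-exposed WT replicate 3 or control WT replicate 0. At 4 months the counts were 1 for CS in WT mice, 3 for CS in RAGE null mice, 0 for genotype after CS and 1 for genotype in controls; requiring 20 counts in every library left 1 gene and gave 0 throughout. For genotype after CS a fit of only the groups compared gave 1, and leaving out single libraries gave 0 to 1 (1 without control RAGE null replicate 2). For CS in WT mice it gave 1 to 2 (2 without CS-exposed WT replicate 3), and for CS in RAGE null mice 2 to 3. Dmbt1 at 4 months changed sign without passing the test: its log2 fold change ran from -0.68 to 1.22 for CS in WT mice, -0.28 to 0.91 for CS in RAGE null mice, -1.02 to 0.41 for genotype after CS, -1.17 to 0.48 for genotype in controls and -1.09 to 0.81 for the difference in CS response. The value was -0.68, 0.41 and 0.81 in the comparisons of CS in WT mice, genotype after CS and the CS response without CS-exposed WT replicate 0, -0.28 for CS in RAGE null mice without control RAGE null replicate 3 and 0.48 for genotype in controls without control WT replicate 3. The replicate numbers name libraries only; with the replicate block the difference in CS response was 0.14 for Dmbt1, and the block changed no call. The cause of these shifts was not tested, and the low counts of Dcpp3, Sbpl and Dmbt1 limit what 4 libraries a group can show.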
